A study of Mus musculus with 6 samples.

Results

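Complex I of the mitochondrial respiratory chain was examined at the transcript level in colitis mice given berberine (BBR) or sulfasalazine (SASP). Its genes were taken as every gene whose symbol begins with Nduf, a rule that names no measured value. This gave 48 of the 18268 genes listed, of which 40 carry subunit names and 8 are assembly factors (symbols beginning with Ndufaf). A gene was tested when its FPKM (a read density per kilobase of transcript, corrected for the size of the library) reached 1 or more in 3 or more samples. In all, 46 members were tested, made up of 38 subunits and 8 assembly factors, among 12072 genes tested in total.

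Colorectal tissue came from C57BL/6 mice, described in the methods of the study as adult males, whose colitis was induced with 7 days of dextran sulfate sodium (DSS), which damages the intestinal epithelium. The 3 BBR samples received the plant alkaloid BBR by gavage for 6 days, and the 3 SASP samples received SASP, an aminosalicylate prodrug used against colitis, for 6 days. All 6 samples share the strain and the DSS exposure, and mice without colitis or without a drug were not analysed here. In the study, SASP was given at a higher dose by weight than BBR. The sources do not state that each sample is a separate animal, so p-values measure the spread between these samples.

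Estimated depth was 16400000 to 18200000 reads per sample, at which 1 read on a 1000-base transcript is worth 0.055 to 0.0608 FPKM. All 12 epithelial markers were detected in every sample, at 71.76 FPKM or more, so the main cell type of the labelled tissue was present. Across genes, which are not independent replicates, log2 values of BBR sample 3 correlated with those of BBR samples 1 and 2 at 0.953 and 0.949, whereas BBR samples 1 and 2 correlated at 0.987. BBR sample 3 therefore stood apart within its group, and the main counts and medians are also given without it.

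Complex I oxidises NADH, passes the electrons to ubiquinone and pumps protons across the inner mitochondrial membrane. Its peripheral arm holds the N module, where NADH is oxidised, and the Q module, where ubiquinone is reduced, and its membrane arm holds the proton-pumping part. Some subunits are encoded by mitochondrial DNA, and no such gene was found in the table, so only nuclear genes are described. Assembly factors build the complex and are not part of the finished enzyme. Cells of the colonic epithelium draw much of their energy from the mitochondrial oxidation of butyrate, and BBR is known from other work as an inhibitor of complex I activity. For SASP, the study reports lower expression of oxidative phosphorylation genes, a group to which complex I belongs, than in untreated colitis. That comparison was not repeated here. Activity and protein were not measured here.

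Complex I subunit transcripts differed little between the drugs, and 1 assembly factor, Ndufaf4, was lower under BBR in the main fit. The Ndufaf4 call was lost in 6 of 15 alternative fits. None of the 38 subunits passed the threshold of an adjusted p of 0.05 in limma (0 lower and 0 higher), where 8.86% of all tested genes passed, 5.04% lower and 3.82% higher in BBR. At an unadjusted p under 0.05, 8 subunits were counted, or 21.1% against 31.8% of all tested genes. Of these 8 subunits, 7 were lower and 1 higher in BBR, where 13.4% of all tested genes were lower and 18.4% higher. Of the 8 assembly factors, Ndufaf4 passed and 4 were counted at the unadjusted level, all of them lower in BBR. Of the 1069 genes past the threshold, 43.1% were higher in BBR (461 higher and 608 lower), and this share was 29.6% after median-ratio scaling and 65.1% with sample quality weights.

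Point estimates of the subunits lay mostly below 0. On the log2(FPKM + 1) scale, the median difference of BBR against SASP was -0.14 over the 38 tested subunits and -0.28 over the 8 assembly factors, beside 0.10 over all tested genes. Differences were below 0 in 32 of 38 subunits and in 7 of 8 assembly factors, against 39.2% of all tested genes. All BBR samples lay below all SASP samples in 14 subunits (36.8%, against 16.6% of all tested genes) and above them in 1, Ndufa1 (21.3% of all tested genes lay above). Individual subunit differences were small, from -0.45 (Ndufab1) to 0.32 (Ndufa1). Their median absolute size was 0.17, against 0.27 over all tested genes, which were not matched to the subunits by level. The 95% confidence intervals of all 38 subunits lay within 1 log2 unit of 0, and those of 21 lay within 0.5. Without BBR sample 3, the median was -0.11 over the subunits and -0.15 over the assembly factors, beside 0.16 over all tested genes. Differences were then below 0 in 25 of 38 subunits, against 34.6% of all tested genes, and 14 subunits lay wholly below SASP, against 21.1%, and 5 wholly above, against 44.0%. In bulk tissue, fewer cells of a type and less RNA per cell cannot be told apart.

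**Figure D1:**
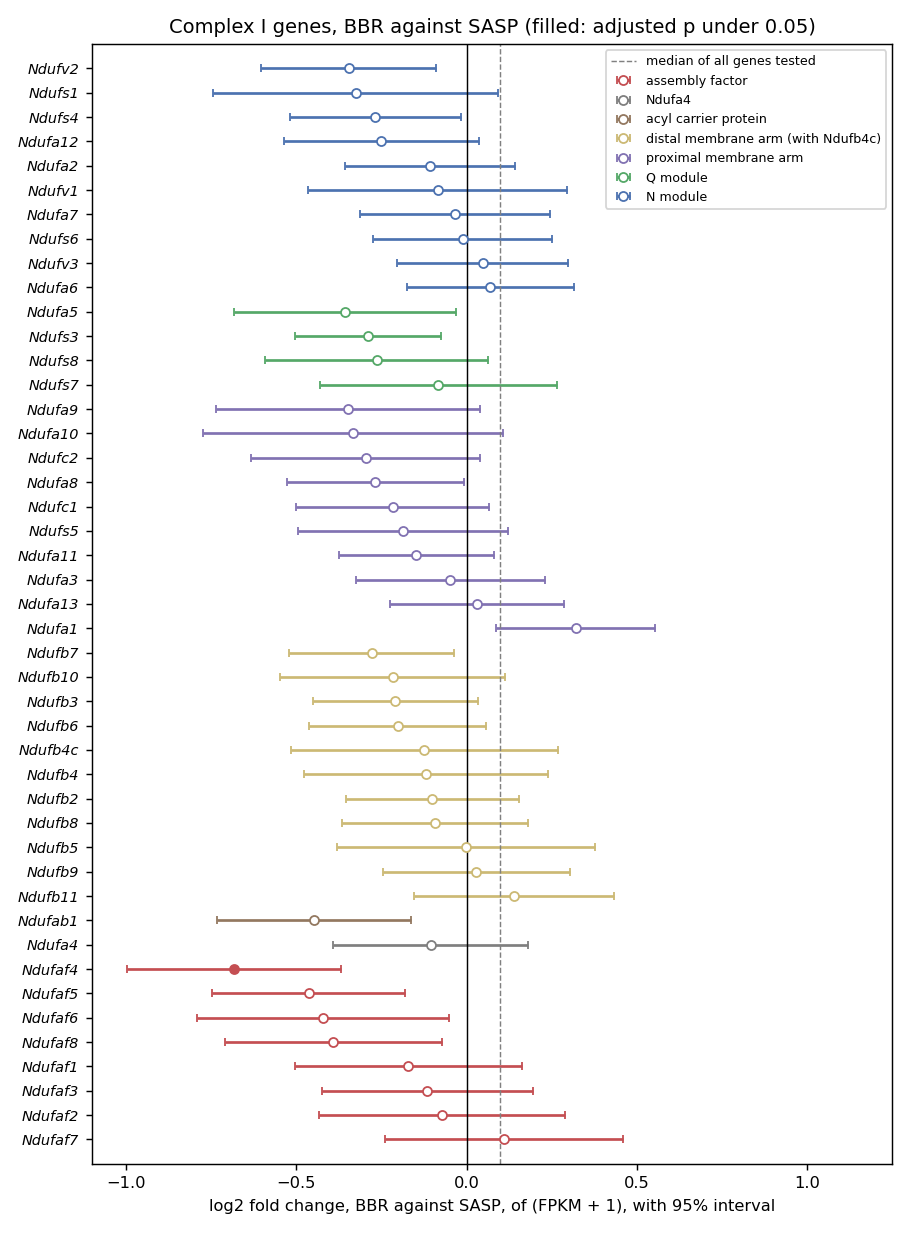
Log2 difference of FPKM + 1, BBR against SASP (horizontal axis), for 45 of the 46 tested complex I genes, grouped by position in the complex. Points are limma estimates with 95% confidence intervals, the dashed line marks the median of all tested genes (0.10), and Ndufaf4 is the only filled point, at -0.68.

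Ndufaf4 encodes a factor that works with Ndufaf3 on early assembly of the Q module. Its FPKM was 3.98, 5.24 and 4.76 in BBR samples 1, 2 and 3, and 7.60, 8.62 and 7.97 in SASP samples 1, 2 and 3. Every BBR sample lay below every SASP sample, and BBR sample 3 was not the lowest of its group. Mean FPKM was 4.66 ± 0.636 (SD, n = 3) under BBR and 8.06 ± 0.516 (SD, n = 3) under SASP, a level 42.2% lower. The log2 difference was -0.68 (SE 0.13, 95% confidence interval -0.998 to -0.370, limma adjusted p = 0.0303). The direction held in all 15 alternatives, with differences from -0.82 to -0.59, but the call did not. Its adjusted p in limma was 0.0570 with no filter on low values, 0.0883 without BBR sample 1, 0.0526 without BBR sample 2, 0.117 without SASP sample 1, 0.0873 without SASP sample 2 and 0.128 without SASP sample 3. Without BBR sample 3 it was 0.0127.

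The bases upstream of Ndufaf4 are shown because it was the member that passed the threshold. They cover the 250 bases before the RefSeq start of the gene on GRCm38.p6, chr4:24897833-24898082 on the plus strand, which is not the build behind the deposited values. The letters in capitals hold the palindromic sequence bound by NRF1, a factor known to act on nuclear respiratory genes, first matched 113 bases before the start (position -113).
Ndufaf4: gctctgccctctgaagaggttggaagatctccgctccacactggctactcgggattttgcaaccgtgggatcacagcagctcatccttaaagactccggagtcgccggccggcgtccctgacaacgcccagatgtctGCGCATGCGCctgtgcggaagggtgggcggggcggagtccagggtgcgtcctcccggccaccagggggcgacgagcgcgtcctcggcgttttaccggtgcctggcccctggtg
A match is a description of the letters only, and binding was not measured.

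The other assembly factors did not pass the threshold in limma. Ndufaf5, which hydroxylates an arginine of the Q-module subunit Ndufs7, was measured at 7.69, 8.52 and 6.91 FPKM in the BBR samples and at 11.62, 10.97 and 10.36 in the SASP samples. The groups did not overlap, and the log2 difference was -0.46 (SE 0.12, limma adjusted p = 0.0584). Ndufaf8, a partner that stabilises Ndufaf5, was measured at 30.97, 30.40 and 22.92 FPKM under BBR and at 37.63, 37.69 and 35.22 FPKM under SASP. It again showed no overlap, with BBR sample 3 the lowest, and its log2 difference was -0.39 (SE 0.13, limma adjusted p = 0.103). Ndufaf6, required at an early step of assembly, had the lowest level of the tested members, at 2.05, 2.69 and 2.29 FPKM under BBR and 3.13, 4.23 and 3.12 FPKM under SASP. Its groups did not overlap either, and the log2 difference was -0.42 (SE 0.16, limma adjusted p = 0.120). Thus 4 of 8 assembly factors lay wholly below SASP, against 16.6% of all tested genes. Ndufaf5, Ndufaf6 and Ndufaf8 passed the threshold after median-ratio scaling, after quantile normalization and with sample quality weights. Without BBR sample 3, Ndufaf5 and Ndufaf8 passed as well, with limma adjusted p-values of 0.0276 and 0.0454. Genes passing over the whole table also rose, from 1069 to 1683, 1737, 7126 and 4018 in these 4 settings.

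The remaining 4 assembly factors overlapped between the groups. Ndufaf1, part of an assembly complex for the membrane arm, was at 8.99, 7.85 and 6.33 FPKM under BBR and at 8.61, 8.83 and 8.79 under SASP. Ndufaf3, the partner of Ndufaf4 in Q-module assembly, was at 8.50, 9.24 and 7.00 FPKM under BBR and 8.88, 8.58 and 9.46 FPKM under SASP. In both genes the lowest of all 6 values was that of BBR sample 3. Ndufaf2, a late factor, was at 20.15, 20.04 and 16.53 FPKM under BBR and at 16.39, 23.17 and 20.60 FPKM under SASP. Ndufaf7, which methylates an arginine during Q-module assembly, was at 14.54, 15.11 and 10.81 FPKM under BBR and at 11.53, 13.23 and 12.21 FPKM under SASP. BBR samples 1 and 2 were the highest for Ndufaf7 and BBR sample 3 the lowest. The log2 differences were -0.17 for Ndufaf1, -0.12 for Ndufaf3, -0.07 for Ndufaf2 and 0.11 for Ndufaf7, with limma adjusted p-values of 0.426, 0.565, 0.765 and 0.632. Those of Ndufaf1, Ndufaf2 and Ndufaf7 changed sign under at least 1 alternative.

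**Figure D2:**
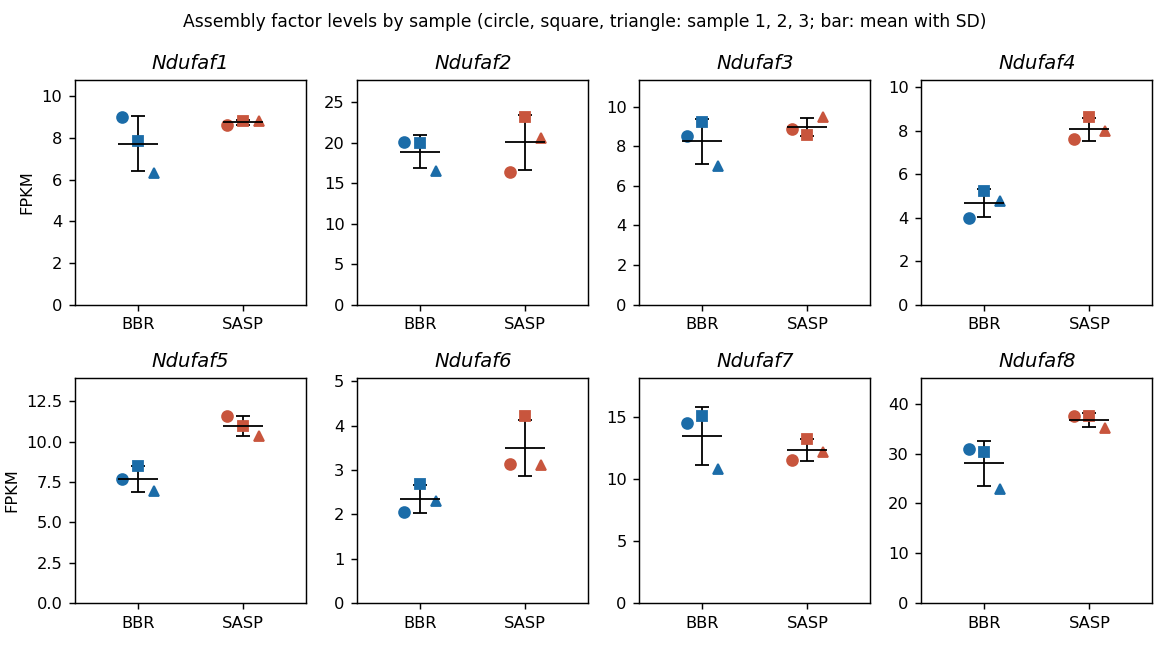
FPKM (vertical axes, from 0) of the 8 Nduf assembly factors in the 3 BBR and 3 SASP samples; symbols mark sample 1, 2 and 3, and bars give the mean with SD. Ndufaf4, Ndufaf5, Ndufaf6 and Ndufaf8 show no overlap between the groups, with Ndufaf4 at 3.98 to 5.24 under BBR and 7.60 to 8.62 under SASP.

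Of 11 further assembly factors that do not carry an Nduf name, 10 were tested. None passed the threshold in limma, and 1 of 10 was counted at an unadjusted p under 0.05, against 31.8% of all tested genes. After median-ratio scaling, and likewise after quantile normalization, 2 were past the threshold, lower in BBR. Of all 12072 tested genes, 1184 were lower after median-ratio scaling and 994 after quantile normalization. The median log2 difference was -0.05, from -0.49 (Dmac1, a distal membrane arm assembly factor) to 0.39 (Dmac2), and 2 of 10 lay wholly below SASP, against 16.6% of all tested genes. Dmac1 was at 12.42, 14.12 and 10.71 FPKM under BBR and 19.45, 17.97 and 16.01 FPKM under SASP, with no overlap and a limma adjusted p of 0.0647. Dmac1 and Dmac2 were named after their values were seen, as the ends of the list.

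FPKM is given per kilobase, so the levels of different genes can be ordered. Subunits were mostly more abundant than assembly factors: 37 of the 38 tested subunits averaged 44.0 FPKM or more over the 6 samples, and the assembly factors averaged 32.5 FPKM or less. The highest mean levels were those of Ndufa6, an LYR-motif subunit of the N module, at 268.8 FPKM, of Ndufb9, an LYR-motif subunit of the membrane arm, at 265.0, and of Ndufb8 at 216.4. The range of Ndufa6 over the samples, 257.04 to 290.89 FPKM, overlapped that of Ndufb9, 236.79 to 285.88, so their order was not separable. The lowest of the tested subunits were Ndufa11 at 17.5, Ndufs4 at 44.0 and Ndufb2 at 45.9 FPKM. Ndufa6, Ndufb9, Ndufb8 and Ndufb2 had overlapping groups and log2 differences from -0.10 to 0.07. Ndufa11 did not overlap, at 16.99, 16.03 and 16.68 FPKM under BBR and 19.65, 17.85 and 17.90 FPKM under SASP, for a difference of -0.15 (limma adjusted p = 0.323).

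**Figure D3:**
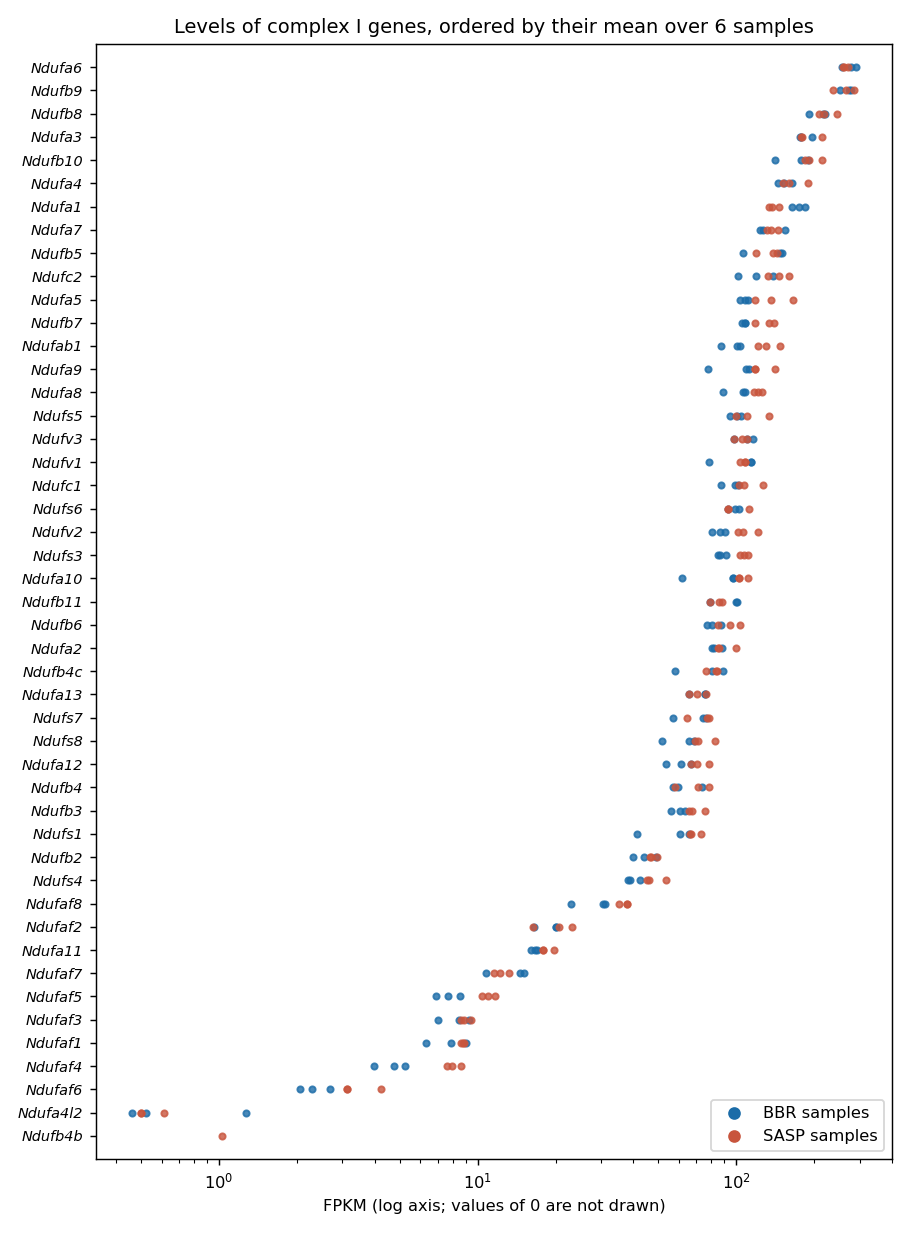
FPKM on a log axis (horizontal) of 47 of the 48 complex I genes in each BBR and SASP sample, ordered by mean level; values of 0 are not drawn. Most subunits occupy the upper part, with Ndufa6 highest at a mean of 268.8, most assembly factors lie below them, and Ndufa4l2 and Ndufb4b are lowest.

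The N module was described by 10 genes. The median log2 difference was -0.10, 8 of 10 were below 0 (39.2% of all tested genes), and 3 lay wholly below SASP (16.6% of all tested genes). Without BBR sample 3 the median was -0.04 and 5 of 10 were below 0. Its core subunit Ndufv2, which carries an iron-sulfur cluster, was at 90.58, 80.79 and 86.17 FPKM under BBR and at 121.28, 101.13 and 106.52 under SASP. The groups were separate, with a log2 difference of -0.35 (SE 0.11, limma adjusted p = 0.0837). Ndufs1, the largest subunit and the carrier of several iron-sulfur clusters, was at 60.54, 65.51 and 41.16 FPKM under BBR and 73.14, 66.43 and 67.03 FPKM under SASP. The groups barely separated, with BBR sample 2 just under SASP sample 2, and the difference of -0.33 (limma adjusted p = 0.245) was -0.13 without BBR sample 3. Ndufv1, which binds NADH and its flavin cofactor, was at 113.51, 114.30 and 78.15 FPKM under BBR and at 107.93, 108.41 and 103.72 FPKM under SASP. BBR samples 1 and 2 were above every SASP sample and BBR sample 3 below them, so the difference of -0.09 became 0.09 without BBR sample 3. Ndufs4, an accessory subunit that joins late in assembly, was at 42.33, 38.86 and 38.21 FPKM under BBR and 53.56, 45.98 and 45.10 FPKM under SASP. Its groups did not overlap, and the difference was -0.27 (limma adjusted p = 0.140).

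All 5 Q-module genes had differences below 0, with a median of -0.26, and 3 lay wholly below SASP, against 39.2% and 16.6% of all tested genes. Without BBR sample 3 the median was -0.14 and 3 of 5 were below 0. Ndufs3, a core subunit of the arm, was at 85.02, 91.36 and 86.27 FPKM under BBR and 107.32, 103.15 and 111.23 FPKM under SASP. The groups were clearly apart with a small spread in each, and the log2 difference was -0.29 (SE 0.09, limma adjusted p = 0.0836). Ndufa5, an accessory subunit, was at 108.36, 111.13 and 103.57 FPKM under BBR and 165.15, 117.87 and 135.75 FPKM under SASP, a difference of -0.36 (limma adjusted p = 0.131) without overlap and with SASP sample 1 far above the others. Ndufs8, which carries iron-sulfur clusters, was at 68.51, 65.66 and 51.82 FPKM under BBR and 82.97, 70.81 and 69.35 FPKM under SASP, again without overlap, for a difference of -0.26 (limma adjusted p = 0.231) that was -0.14 without BBR sample 3. Ndufs7, which helps to form the ubiquinone pocket, was at 74.39, 76.56 and 57.05 FPKM under BBR and 78.13, 64.28 and 77.05 under SASP. The groups overlapped, and the difference of -0.08 (limma adjusted p = 0.720) was 0.05 without BBR sample 3.

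Together the 7 core nuclear subunits, those shared with the bacterial enzyme, all had differences below 0. Their median was -0.26, and 4 of 7 lay wholly below SASP, against 16.6% of all tested genes. None passed the threshold in limma, and 2 of 7 had an unadjusted p under 0.05, near the 31.8% of all tested genes. The 2 were lower in BBR, as were 13.4% of all tested genes at that level. The median was -0.13 without BBR sample 3, and 4 of 7 were then below 0.

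The membrane arm was divided into a proximal part next to the Q module and a distal part. The median log2 difference was -0.20 over 10 proximal genes, of which 5 lay wholly below and 1 wholly above SASP, and -0.11 over 10 distal genes, of which 2 lay below. Of all tested genes, 16.6% lay wholly below and 21.3% wholly above. The medians were -0.15 and -0.06 without BBR sample 3. Ndufa1, a small proximal subunit encoded on the X chromosome, was the gene above, at 174.88, 164.46 and 183.59 FPKM under BBR and 146.67, 133.82 and 137.66 FPKM under SASP. Every BBR sample was above every SASP sample, and the sample that was lowest for most subunits, BBR sample 3, was the highest here. The log2 difference was 0.32 (SE 0.10, limma adjusted p = 0.0818), and across the alternatives it stayed above 0, from 0.19 to 0.41. Ndufa1 passed the threshold in limma after quantile normalization (adjusted p = 0.0314), with sample quality weights (0.00128) and without BBR sample 3 (0.0424). Counts over all genes were then 1737, 7126 and 4018, against 1069 in the main fit.

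Among the other membrane-arm genes, Ndufb7 and Ndufa8 belong to the subunits that face the intermembrane space. Ndufb7 was at 108.21, 105.61 and 107.58 FPKM under BBR and 140.37, 117.86 and 133.41 FPKM under SASP. The BBR values were nearly equal and all below SASP, with a difference of -0.28 (limma adjusted p = 0.118). Ndufa8 was at 106.11, 107.79 and 89.17 FPKM under BBR and 126.04, 121.74 and 116.69 FPKM under SASP, also without overlap, for a difference of -0.27 (limma adjusted p = 0.148). Ndufa10, named because its interval was the widest of the subunits, was at 96.90, 96.70 and 61.39 FPKM under BBR and 110.96, 102.33 and 102.13 FPKM under SASP. BBR sample 3 lay far below the other samples, and the 95% confidence interval was -0.77 to 0.11. The difference of -0.33 was -0.12 without BBR sample 3.

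Ndufab1, the mitochondrial acyl carrier protein, also serves fatty acid synthesis and iron-sulfur cluster formation and is present in both arms of the complex. It had the lowest difference of the subunits. Its FPKM was 100.61, 103.38 and 86.88 under BBR and 147.05, 120.95 and 130.17 under SASP. No values overlapped, mean FPKM was 26.9% lower under BBR, and the log2 difference was -0.45 (SE 0.12, 95% confidence interval -0.73 to -0.16, limma adjusted p = 0.0618). It passed the threshold after median-ratio scaling (adjusted p = 0.0324), with sample quality weights (0.00142) and without BBR sample 3 (0.0356). Counts over all genes were then 1683, 7126 and 4018, against 1069 in the main fit.

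A few names need separate reading. Ndufa4, first described in complex I and now placed in complex IV, was at 144.72, 153.56 and 164.72 FPKM under BBR and 189.12, 159.82 and 151.20 FPKM under SASP, with overlap and a difference of -0.11 (limma adjusted p = 0.569). Its paralog Ndufa4l2, known as a target of hypoxia-inducible factor, was not tested, at 0.52, 1.27 and 0.46 FPKM under BBR and 0.50, 0.50 and 0.61 FPKM under SASP. Ndufb4b was listed at 0 in 5 samples and at 1.03 FPKM in SASP sample 3, and was not tested. Ndufb4, Ndufb4b and Ndufb4c are close copies, so the division of reads among them is uncertain. Their summed FPKM was 145.42, 154.18 and 117.38 under BBR and 155.06, 141.64 and 155.38 under SASP, with BBR sample 3 lowest and the other values intermixed.

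A pair of samples held the extremes of most subunits. BBR sample 3 had the lowest value of all 6 samples in 26 of 38 tested subunits (4118 of all 12072 tested genes), and SASP sample 1 had the highest in 28 of 38 (1697 of 12072). The subunits summed to 4356, 4298 and 3756 FPKM in BBR samples 1, 2 and 3 and to 4872, 4298 and 4340 FPKM in SASP samples 1, 2 and 3. BBR samples 1 and 2 and SASP samples 2 and 3 were thus nearly level, and the groups overlapped. As a share of all FPKM the subunits took 0.932%, 0.932% and 0.797% under BBR and 1.00%, 0.910% and 0.910% under SASP. Without both BBR sample 3 and SASP sample 1, an alternative chosen after seeing the data, the subunit median was -0.04 beside 0.13 over all genes, 0 subunits were lower, and 1 was higher, Ndufa1 at 0.32 (limma adjusted p = 0.0441). The assembly-factor median was then -0.18 with 1 of 8 lower. Among all genes, 986 were lower and 1906 higher in that fit.

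**Figure D4:**
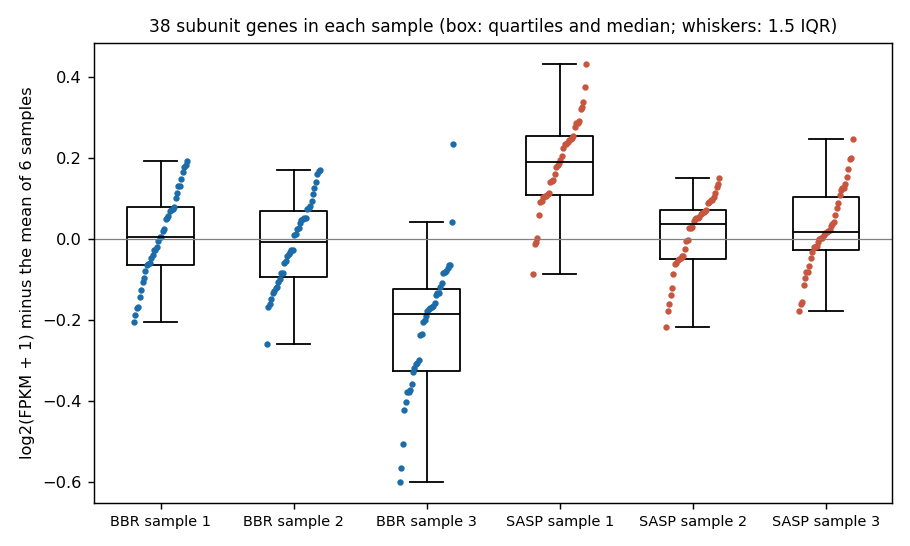
Log2(FPKM + 1) of each of the 38 tested subunits minus its mean over the 6 samples (vertical axis), by sample; points are genes and boxes give the median and quartiles, with whiskers at 1.5 interquartile ranges. BBR sample 3 lies mostly below 0 and SASP sample 1 mostly above, with the other 4 samples near 0.

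Assembly-factor transcripts were scarce beside those of the subunits, and their sum did not follow the same order of samples. Their median of log2(FPKM + 1) was highest in SASP sample 1 (3.48) and lowest in BBR sample 3 (2.99), as was that of the subunits. The assembly factors summed to 96.9, 99.1 and 77.6 FPKM under BBR and 105.4, 115.3 and 107.7 FPKM under SASP, with no overlap. Relative to the subunit sum they were 2.22%, 2.31% and 2.06% under BBR and 2.16%, 2.68% and 2.48% under SASP, and these shares overlapped through SASP sample 1.

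Markers of tissue makeup differed between the groups alongside these levels. Smooth muscle markers (10 of 10 tested) summed to 3183, 3402 and 7414 FPKM under BBR and to 863, 2622 and 1940 FPKM under SASP, so the sample with the lowest subunit sum had the highest muscle sum and the sample with the highest subunit sum the lowest. None of these markers passed the threshold in limma, 8 of 10 were counted at an unadjusted p under 0.05 (31.8% of all tested genes), and their median log2 difference was 1.32. Leukocyte markers (9 of 9 tested) summed to 32.4 to 52.1 FPKM under BBR and 55.9 to 93.4 FPKM under SASP, with 0 of 9 past the threshold and 6 at an unadjusted p under 0.05. Stromal fibroblast markers summed to 307.7 to 417.2 FPKM under BBR and 149.4 to 244.4 under SASP, with 4 of 8 higher (3.82% of all tested genes), among them Thy1 (0.84, limma adjusted p = 0.0399) and Col3a1 (0.85, 0.0410). Epithelial markers summed to 10262 to 12520 FPKM under BBR and 10273 to 10497 under SASP, with Krt18, a keratin, higher (0.75, limma adjusted p = 0.0163) and Vil1, a brush border protein, lower (-0.55, 0.0327). The other stromal fibroblast calls were not followed across the alternatives. The calls of Thy1, Col3a1, Krt18 and Vil1 were lost without BBR sample 1 (limma adjusted p = 0.0685 to 0.0917), SASP sample 1 (0.0557 to 0.151) or SASP sample 3 (0.0927 to 0.142). Those of Vil1, Thy1 and Col3a1 were also lost without BBR sample 2 (0.0967 to 0.111), and those of Vil1 and Thy1 without SASP sample 2 (0.0629 and 0.0878). With no filter on low values Vil1 (0.0527), Thy1 (0.0713) and Col3a1 (0.0647) were lost, and Thy1 also after quantile normalization (0.0507). Goblet cell markers summed to 12185 to 23746 FPKM under BBR and 10135 to 15064 under SASP, with 0 of 7 past the threshold and 0 at an unadjusted p under 0.05. Smooth muscle was not alone in its sample extremes. The goblet sum was also highest in BBR sample 3 and lowest in SASP sample 1, and the leukocyte sum was lowest in BBR sample 3 and highest in SASP sample 1. The epithelial sum was highest in BBR sample 3 but lowest in BBR sample 2. The stromal fibroblast sum was lowest in SASP sample 1 but highest in BBR sample 2. No marker of any list was at 0 in all samples. The part of tissue makeup in the complex I values was not tested.

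**Figure D5:**
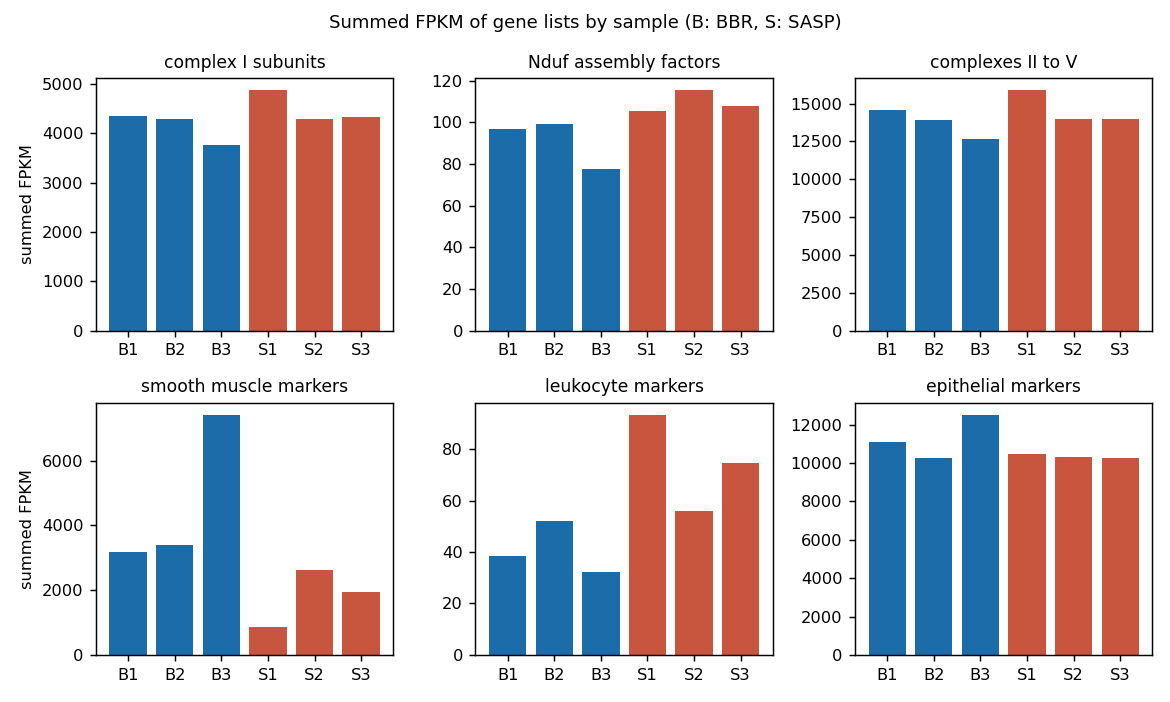
Summed FPKM per sample (vertical axes, from 0) of the complex I subunits, the Nduf assembly factors, the other respiratory complexes and 3 marker lists, for BBR (B1 to B3) and SASP (S1 to S3). BBR sample 3 has the lowest subunit sum, 3756, and the highest smooth muscle sum, 7414. It also has the highest epithelial sum, 12520, and the lowest leukocyte sum, 32.4.

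The other nuclear-encoded respiratory genes were measured for comparison. Median log2 differences were -0.17 in complex II (succinate dehydrogenase, 4 genes), -0.18 in complex III (9 genes), 0.04 in complex IV (13 tested genes) and -0.14 in complex V (18 genes), beside -0.14 in complex I. The complex V list holds genes of ATP synthase, its inhibitor Atpif1, and Micos10, a gene of another inner membrane complex. Over complexes II to V together the median was -0.12 with 31 of 44 tested genes below 0, against 39.2% of all tested genes. In limma 1 gene of the 44 passed, Cox7a1, the complex IV isoform typical of muscle, at 73.08, 73.53 and 78.64 FPKM under BBR and 46.14, 38.18 and 41.94 FPKM under SASP (0.82, adjusted p = 0.0105), and 3 of 44 were counted at an unadjusted p under 0.05. The shares over all tested genes were 8.86% and 31.8%. Cox7a1 and the smooth muscle sum were both higher in every BBR sample than in any SASP sample, whereas within SASP the sample with the lowest muscle sum, sample 1, had the highest Cox7a1. The part of muscle in its level was not tested. The limma adjusted p of Cox7a1 was 0.0513 without BBR sample 1, 0.0502 without SASP sample 1 and 0.0735 without SASP sample 3. The ratio of the summed complex I subunits to the summed genes of complexes II to V was 0.299, 0.309 and 0.296 under BBR and 0.307, 0.308 and 0.311 under SASP. These ratios overlapped and stayed within a narrow range in all 6 samples, including BBR sample 3 and SASP sample 1.

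Promoter windows from 250 bases before to 50 bases after the RefSeq start (GRCm38.p6) were available for 41 of the 48 members, 34 subunits and 7 assembly factors, and for 9699 of the tested genes. They were searched on both strands for letters bound by factors known to act on respiratory genes. The NRF1 letters GCGCATGCG were present in 2 of 34 subunits and 2 of 7 assembly factors, against 4.03% of tested genes. With any base at the sixth position (GCGCANGCG, which includes the former), they were present in 8 subunits and 2 assembly factors, against 15.1%. The ETS letters CCGGAAG, read by GABP, were in 4 subunits and 2 assembly factors, against 20.3%. The ERR letters TCAAGGTCA were in no member, against 0.320%, which says only that these letters are not in these windows. Besides Ndufaf4, the exact NRF1 letters were in Ndufaf5 (chr2:140170652-140170681, plus strand), Ndufa8 (chr2:36049329-36049358, minus strand) and Ndufa11 (chr17:56717692-56717721, plus strand). In these 4 genes the BBR samples lay wholly below SASP, and no test was made of it. The same held in 14 of 38 tested subunits, 4 of 8 assembly factors and 16.6% of all tested genes. Of the 6 other members holding the looser letters in these windows, Ndufa5 lay wholly below SASP, and Ndufs6, Ndufa6, Ndufb4, Ndufb10 and Ndufs5 overlapped between the groups. Capitals mark the matched letters in each stretch of 30 bases; in Ndufaf5 and Ndufa11 matches on both strands overlap.
Ndufaf5: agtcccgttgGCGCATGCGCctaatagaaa
Ndufa8: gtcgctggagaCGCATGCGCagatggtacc
Ndufa11: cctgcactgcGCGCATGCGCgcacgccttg

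The YY1 letters AAGATGGC were present in 7 of 34 subunits and in 1 of 7 assembly factors, against 5.31% of tested genes. In each of the 8 members the match lay on the gene's own strand within the 50 bases after the start, its first base at positions 11 to 39, and is in capitals. The letters include ATG, and whether that is the start codon was not examined. They are shown because they lay in a similar place in each of these genes.
Ndufs7: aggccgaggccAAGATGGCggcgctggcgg
Ndufaf8: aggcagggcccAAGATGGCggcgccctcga
Ndufs6: aagggtcaccggcAAGATGGCggcggtgct
Ndufs4: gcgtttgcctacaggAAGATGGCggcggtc
Ndufb8: tgaaccgcggagaaggtgAAGATGGCtgcc
Ndufc1: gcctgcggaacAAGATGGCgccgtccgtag
Ndufa9: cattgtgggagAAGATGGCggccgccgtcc
Ndufa3: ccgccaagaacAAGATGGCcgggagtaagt
The stretches lie on GRCm38.p6 at chr10:80249462-80249491 (Ndufs7, plus), chr11:120098933-120098962 (Ndufaf8, plus), chr13:73328433-73328462 (Ndufs6, minus), chr13:114388045-114388074 (Ndufs4, minus), chr19:44555393-44555422 (Ndufb8, minus), chr3:51408915-51408944 (Ndufc1, minus), chr6:126849097-126849126 (Ndufa9, minus) and chr7:3617384-3617413 (Ndufa3, plus). Of these 8 members, Ndufs4, Ndufaf8, Ndufc1 and Ndufa9 lay wholly below SASP under BBR (16.6% of all tested genes did). Ndufs7, Ndufs6, Ndufb8 and Ndufa3 overlapped between the groups. Of the tested members, 14 of 38 subunits and 4 of 8 assembly factors lay wholly below SASP.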

How the data were processed

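RNA-seq of colorectal tissue was analysed from 3 BBR and 3 SASP samples, grouped by their treatment label. The deposited values are FPKM, which the authors calculated per gene and sample with RSEM 1.2.12 after alignment with Bowtie2 2.2.5, and the submitters' processing notes name build mm9. The labels name an Illumina TruSeq kit, whereas the methods describe ribosomal RNA depletion and single-end nanoball sequencing of rectal samples. RSEM divides reads among similar genes, which leaves close copies uncertain. Strandedness is not given in the sources used here.

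Log2(FPKM + 1) was compared in limma 3.58.1, run in R 4.3.3, using moderated variances with a trend on the mean. Genes reaching 1 FPKM in 3 or more of 6 samples were tested. P-values were two-sided and adjusted by Benjamini-Hochberg over all 12072 tested genes, with a threshold of 0.05. Fold changes on this scale understate those of low genes. An exact permutation test of 3 against 3 cannot give a two-sided p below 0.1. The limma step was tested on simulated data. The depth estimate takes values present in a single sample as 1 read each, and is approximate.

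Members and gene lists were chosen with earlier results of these data known. Members named were those past the threshold, the 8 subunits with the smallest p, the 7 core subunits, the 3 highest and 3 lowest tested subunits, all assembly factors, those below the filter, and Ndufa4 with its paralog. Of each other list, up to 2 past the threshold were named. Ndufa10, Dmac1, Dmac2 and the genes holding motifs were named after their values were seen. The values of 1 member are not reported here, though it counts in totals. Modules were assigned from general knowledge of the complex, and Ndufb4b and Ndufb4c were kept out of them. Alternatives covered the filter, pseudocount, scaling, sample weights, the trend and each sample left out.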

Additional observations from a re-analysis of the deposited data

How the results depend on the processing

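The negative sign of the subunit median and of the assembly-factor median held under every alternative run, but counts past the threshold moved with scaling and with single samples, and the causes were not tested. Over all genes, 1069 passed, against 608 with no filter, 1683 after median-ratio scaling, 1737 after quantile normalization, 7126 with sample quality weights, 2892 without BBR sample 3 and SASP sample 1, and 51 to 4018 when 1 sample was left out. The quality weights were uneven, 5.32 for BBR sample 1 and 0.129 for BBR sample 3. Median-ratio scaling moved the median of all genes by -0.12, the subunit median to -0.27 (-0.25 relative to all genes) and the assembly-factor median to -0.41. Leaving out 1 sample gave a subunit median of -0.21 to -0.10 and an assembly-factor median of -0.32 to -0.15. With quality weights the subunit median was -0.03 and the assembly-factor median -0.16, and with a mean FPKM of at least 5 the assembly-factor median was -0.17. Subunits lower in BBR numbered 3 after median-ratio scaling, 7 with quality weights and 0 to 3 when 1 sample was left out. Among all genes, those lower numbered 1184, 2490 and 45 to 1369 in the same settings. Subunits higher numbered 1 after quantile normalization, 4 with weights, 1 without BBR sample 3 and SASP sample 1, and 0 to 1 when 1 sample was left out. Among all genes, those higher numbered 743, 4636, 1906 and 6 to 2649 in the same settings. Assembly factors lower numbered 0 with no filter, 4 each after median-ratio scaling, after quantile normalization and with weights, and 0 to 3 when 1 sample was left out; 1 was higher with weights. The 3 lower subunits and 3 lower assembly factors at the upper end were those without BBR sample 3. Among all genes, 383 were lower with no filter and 994 after quantile normalization.

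Small differences changed sign. After median-ratio scaling Ndufb9 was -0.105, Ndufa6 -0.0648 and Ndufaf7 -0.0158. After quantile normalization Ndufv1 was 0.0032 and Ndufb8 0.0395. With quality weights Ndufv1 was 0.105, Ndufb2 0.0504 and Ndufaf1 0.0048. With 1 sample left out, or with BBR sample 3 and SASP sample 1 both left out, Ndufb9 ranged from -0.044 to 0.134, Ndufaf2 from -0.204 to 0.0332, Ndufv1 from -0.178 to 0.102, Ndufs7 from -0.172 to 0.0993, Ndufb8 from -0.140 to 0.036 and Ndufb2 from -0.177 to 0.0006. No paired analysis was possible because the sample titles of the groups share no numbers and the replicate numbers only name samples. The number of samples limits the precision, and 38 subunit intervals reach as far as -0.77 and 0.55.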

Other observations

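Regulators of respiratory chain genes differed in both directions. None of the 15 listed passed the threshold in limma, 1 of 15 was counted at an unadjusted p under 0.05, against 31.8% of all tested genes, and their median log2 difference was 0.08, from -0.67 (Hif1a) to 0.60 (Ppargc1a). With sample quality weights 8 were higher and 3 lower, where 4636 of the 12072 tested genes were higher and 2490 lower. Nrf1, a transcription factor of nuclear respiratory genes, was at 8.78, 7.50 and 6.83 FPKM under BBR and 6.57, 7.64 and 7.43 FPKM under SASP, with overlap. Ppargc1a, a coactivator that promotes mitochondrial biogenesis, was at 23.57, 10.79 and 9.77 FPKM under BBR and 9.20, 8.53 and 8.24 FPKM under SASP. Every BBR value was above every SASP value, with BBR sample 1 far above the rest, and the difference of 0.60 had a limma adjusted p of 0.216. They were named after their values were seen.

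Mitochondrial genes outside the respiratory chain had a median log2 difference of -0.20 over 10 genes, of which 5 lay wholly below SASP, against 16.6% of all tested genes. Cs, encoding citrate synthase, which is often used to gauge mitochondrial content and was named after its values were seen, overlapped at 388.16, 363.39 and 384.32 FPKM under BBR and 366.08, 360.98 and 353.97 FPKM under SASP. Hspd1, the mitochondrial chaperonin, was the member that passed the threshold, at 61.94, 84.05 and 38.70 FPKM under BBR and 171.79, 144.02 and 144.88 FPKM under SASP. It was lower in every BBR sample, by -1.37 on the log2 scale (SE 0.26, limma adjusted p = 0.0294), with differences from -1.62 to -0.99 and adjusted p-values up to 0.127 across 15 alternatives. The call ended with no filter (0.0522) and without BBR sample 1 (0.0818), SASP sample 1 (0.127), SASP sample 2 (0.0731) or SASP sample 3 (0.107). At -1.37 its difference was larger in size than that of any complex I gene.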
